A study of Mus musculus with 6 samples.

Results

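The unfolded protein response and the ATF4 branch of the integrated stress response are described here through 10 genes: Atf4, Ddit3, Trib3, Chac1, Asns, Hspa5, Xbp1, Herpud1, Dnajb9 and Sdf2l1. Their members on the array are all probe sets whose annotated symbol is exactly 1 of these names, which gave 21 probe sets of 45037 tested and 10 genes of 18193 with a probe set of their own. The cells were commercially supplied mouse mesenchymal stem cells, grown in α-MEM with serum. All cultures, irradiated and control alike, carried an adipogenic mix of rosiglitazone (1 µM), insulin (5 µg/ml), IBMX (100 µM) and dexamethasone (1 µM), added again 48 h before exposure. The irradiated group received 2 h of pulsed broadband terahertz radiation centred near 10 THz at 1 mW/cm2, and each control culture stood beside the irradiated one, both at 26 to 27 °C. Strain, passage and donor animals are not given in the sources used here, and experiments 1, 2 and 3 each held 1 irradiated and 1 control culture, so there were 3 arrays a group.

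When proteins misfold in the endoplasmic reticulum (ER), sensors in its membrane named PERK, IRE1 and ATF6 start the unfolded protein response. PERK phosphorylates eIF2α, which slows translation in general and lets the transcription factor ATF4 be made. Lack of amino acids and other stresses reach ATF4 through other eIF2α kinases. IRE1 splices the Xbp1 mRNA and ATF6 is cut in the Golgi, and the resulting factors raise ER chaperones and the machinery that removes misfolded proteins. In cells turning into secretory fat cells this system adjusts the folding capacity of the ER.

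Over all 10 genes, terahertz exposure gave no difference past the threshold, whereas 4 of them differed between the independent experiments. With experiment as a block in limma, irradiated minus control reached an adjusted p under 0.05 in 0 of the 21 member sets and in 0% of all probe sets. At an unadjusted p under 0.05 there were 2 of the 21, and 2237 of the 45037. Ddit3, Herpud1, Hspa5 and Dnajb9 were higher in both cultures of experiment 3 than in both of experiment 1, by 3.76-fold, 3.42-fold, 1.91-fold and 1.85-fold. Called higher for experiment 3 minus experiment 1 were 7 of 21 member probe sets, against 1.87% of all probe sets, and 4 of 10 genes with 1 probe set each, against 2.07% of all genes. The members were chosen with earlier results of these data known, so these shares are descriptions and no test of the set. The experiment comparisons rest on 1 irradiated and 1 control array in each experiment, so their p-values measure the spread between these cultures and name no condition that differed between the runs.

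All levels are log2 RMA values, a fluorescence scale made comparable between arrays. Probes differ in brightness, so the levels of different members are not compared, and the median probe set serves below only as a rough mark of dim and bright signal. Fold changes are between arrays for the same probe set. Where a gene has several probe sets, the brightest by mean level stands for it, and sets made to match several transcripts can also bind related ones. RMA equalizes the arrays and hides any shift common to the whole transcriptome, and in a bulk culture fewer cells with a transcript and less of it per cell cannot be told apart. Over the 18193 genes the median difference was 0.00 for irradiated minus control and -0.02 for experiment 3 minus experiment 1.

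The arrays differed little in overall level but not in every quality measure. The array medians lay between 4.83 and 4.87. The hybridization spikes averaged 11.25, 11.14 and 11.08 in irradiated cultures of experiments 3, 2 and 1, against 11.63, 11.06 and 11.07 in the controls, so the control of experiment 3 stood apart. The 3' minus 5' difference of Gapdh, which grows as RNA breaks, was -0.01, -0.03 and 0.23 in irradiated cultures and -0.03, -0.05 and 0.19 in controls of experiments 3, 2 and 1. It was thus higher in both cultures of experiment 1. That of Actb was 0.62, 0.61 and 0.76 in irradiated cultures and 0.72, 0.62 and 0.75 in controls, higher in both cultures of experiment 1 and in the control of experiment 3. The part of these measures in the differences between experiments, and in the pair of experiment 3, was not tested.

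The labelled cell type was checked against its markers. Of 9 measured stromal markers, 8 were above the median probe set of 4.84. Nt5e, the surface enzyme CD73, ranged from 7.53 to 8.40 in irradiated and from 8.26 to 8.44 in control cultures. Thy1, the surface protein CD90 of cultured stromal cells, was below that median on all 6 arrays, at 3.87 to 4.07 in irradiated and 3.51 to 3.85 in control cultures. Fat-cell markers (8 of 9 above the median probe set) and macrophage and leukocyte markers (10 of 10) gave bright signal. Adipoq, the fat-cell hormone adiponectin, reached 13.62 to 13.72 in irradiated and 13.68 to 13.94 in control cultures. Cd68, a macrophage lysosomal protein, reached 12.15 to 12.16 in irradiated and 12.04 to 12.11 in control cultures. Plasma cells have a large ER, and their joining chain gene Jchain read 2.90 to 3.14 in irradiated and 3.05 to 3.18 in control cultures. Of the 6 plasma cell markers 2 were above the median probe set, among them Sdc1, a surface proteoglycan that other cells also carry, at 12.01 to 12.11 in irradiated and 11.86 to 12.03 in control cultures. The mean of the 10 macrophage and leukocyte markers was 11.35, 11.38 and 11.44 in irradiated and 11.17, 11.29 and 11.38 in control cultures of experiments 3, 2 and 1. Their median difference was 0.08 for irradiated minus control and -0.22 for experiment 3 minus experiment 1, with 0 of 10 called by limma in each and 1 and 5 at an unadjusted p under 0.05. The mean of the 9 fat-cell markers was 10.36, 10.39 and 10.40 in irradiated and 10.51, 10.58 and 10.63 in control cultures, with 0 of 9 called by limma in any of the 4 comparisons and 3 at an unadjusted p under 0.05 for irradiated minus control. The part of these cell types in the results below was not tested.

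The ATF4 branch is described first, from the factor to its targets. Atf4 (chr15:80255184-80257545, GRCm38.p6) encodes the transcription factor itself, whose amount is set largely by translation, so its mRNA shows only part of its regulation. Its brightest probe set read 12.32, 12.29 and 11.76 in irradiated cultures of experiments 3, 2 and 1, against 12.35, 12.38 and 11.91 in the controls. The irradiated culture was the lower one in each pair, by 0.03 to 0.15, while the arms overlapped. The difference was -0.09 ± 0.08 (SE, n = 3 pairs), with a 95% interval of -0.28 to 0.10 and a limma adjusted p of 0.943. Every SE in the text is limma's moderated one, which borrows spread from all probe sets and is not the spread of the 3 pairs alone. Both cultures of experiment 1 lay below all 4 others, and experiment 3 minus experiment 1 was 0.50 ± 0.09 with a limma adjusted p of 0.0524. A second Atf4 probe set gave 0.41 for that difference (adjusted p = 0.172), and the third was dim, with a mean of 3.60.

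Ddit3 (chr10:127290793-127296291) encodes CHOP, a transcription factor that ATF4 induces and that links prolonged ER stress to cell death. It varied most of the 10 genes between experiments. Its brightest probe set read 11.45, 10.75 and 9.72 in irradiated cultures of experiments 3, 2 and 1, against 11.93, 10.79 and 9.84 in the controls. The 3 experiments did not overlap, and both arms held the same order. Experiment 3 minus experiment 1 was 1.91 ± 0.13 (SE), or 3.76-fold, with a limma adjusted p of 0.0022, and experiment 2 minus experiment 1 was 0.99 ± 0.13, or 1.99-fold, with an adjusted p of 0.0479. Experiment 3 minus experiment 2 was 0.92 ± 0.13, which did not pass (adjusted p = 0.146).

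The other Ddit3 probe set read 8.62, 8.28 and 6.95 in irradiated cultures and 8.39, 8.51 and 7.24 in controls. It also passed for experiments 3 and 2 over experiment 1, by 1.41 (adjusted p = 0.0088) and 1.30 (adjusted p = 0.0294). It differed from the brighter set over experiments 3 and 2, where its difference was 0.11 and the cultures overlapped. For irradiated minus control the brightest set gave -0.21 ± 0.11, with an interval of -0.47 to 0.05 and a limma adjusted p of 0.929. The pair of experiment 3 contributed -0.48, against -0.04 and -0.12 in experiments 2 and 1. The other set gave 0.23, -0.23 and -0.29 in experiments 3, 2 and 1, so there the irradiated culture of experiment 3 was the higher one.

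Trib3 (chr2:152337425-152344060) encodes a pseudokinase, a target of ATF4 and CHOP that restrains ATF4 and insulin signalling. Its brightest probe set read 7.47, 8.07 and 7.31 in irradiated cultures, against 8.27, 7.94 and 7.74 in the controls of experiments 3, 2 and 1. The irradiated culture was lower in experiments 3 and 1 and higher in experiment 2. The mean difference was -0.37 ± 0.17 (SE, n = 3 pairs; limma adjusted p = 0.929), with an interval of -0.78 to 0.05. A second Trib3 probe set was lower in all 3 pairs, by 0.64, 0.01 and 0.33, and was 1 of the 2 member probe sets with an unadjusted p under 0.05 (-0.33 ± 0.13, limma adjusted p = 0.929). The brightest set gave 0.35 for experiment 3 minus experiment 1 and did not pass (adjusted p = 0.432).

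Chac1 (chr2:119351242-119354326) encodes an enzyme that degrades glutathione and is an ATF4 target. Its probe set read 7.96, 8.63 and 7.54 in irradiated cultures of experiments 3, 2 and 1, against 8.97, 8.30 and 7.95 in the controls. The pair differences were -1.01, 0.33 and -0.41, so the irradiated culture was lower in experiments 3 and 1 and higher in experiment 2. The mean was -0.36 ± 0.23 (SE, n = 3 pairs; limma adjusted p = 0.929) and its interval of -0.93 to 0.20 reached past 1.5-fold. The control of experiment 3 had the highest value of the 6 arrays. That also held for the brightest sets of Trib3, Ddit3, Asns, Hspa5, Herpud1 and Dnajb9. Chac1 was 0.72 ± 0.29 higher in experiment 3 than in experiment 1, which did not pass (limma adjusted p = 0.247).

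Asns (chr6:7675165-7693209) encodes asparagine synthetase, which ATF4 induces when amino acids are short. Its brightest probe set read 10.11, 10.17 and 10.17 in irradiated cultures, against 10.38, 10.20 and 10.23 in the controls of experiments 3, 2 and 1. In this set the irradiated culture was lower in each pair, and the arms did not overlap. Irradiated minus control was -0.12 ± 0.09 (limma adjusted p = 0.933) with an interval of -0.33 to 0.09. Experiment 3 minus experiment 1 was 0.05 ± 0.10, with an interval of -0.21 to 0.30, so a difference of the size seen in Ddit3 lies outside it. The second Asns probe set gave 0.06 for that difference. For irradiated minus control its pair values were -0.30, 0.02 and -0.14 in experiments 3, 2 and 1, and its arms overlapped.

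The promoters of Asns and Chac1 are shown because both genes are ATF4 targets whose values differ: Asns was nearly level over the 6 arrays and Chac1 spread widely. Each run holds 250 bases before and 50 bases from the RefSeq start site (GRCm38.p6), 5′ to 3′ on the gene's strand, and the capitals mark a C/EBP-ATF response element, searched as TGATGNAA on both strands. Positions are counted with the first transcribed base as 0.
Asns, chr6:7693160-7693459, minus strand: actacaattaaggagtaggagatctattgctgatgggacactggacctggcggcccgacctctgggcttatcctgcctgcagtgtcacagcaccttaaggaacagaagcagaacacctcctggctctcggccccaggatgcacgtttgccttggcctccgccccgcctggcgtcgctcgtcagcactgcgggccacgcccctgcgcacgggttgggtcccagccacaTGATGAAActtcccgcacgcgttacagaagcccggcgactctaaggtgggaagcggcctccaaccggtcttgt
Chac1, chr2:119350992-119351291, plus strand: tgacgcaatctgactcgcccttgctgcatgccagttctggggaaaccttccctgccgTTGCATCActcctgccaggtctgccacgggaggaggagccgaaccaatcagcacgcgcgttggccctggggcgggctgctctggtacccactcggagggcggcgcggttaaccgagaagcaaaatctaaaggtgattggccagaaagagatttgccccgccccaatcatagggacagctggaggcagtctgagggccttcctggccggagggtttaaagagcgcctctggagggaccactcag

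In Asns the element lies on the gene's own strand, from -23 to -16. In Chac1 it lies on the opposite strand, from -193 to -186, so the capitals show its reverse complement. Trib3 holds a match at 14 to 21, inside the transcribed part. The element is common, with a match in 3.97% of 32851 RefSeq promoters of the same length. A match is a string of letters and not a measured binding site.

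The ATF6 and XBP1 branch covers ER folding and clearance. Hspa5 (chr2:34772090-34776529) encodes BiP, the main ER chaperone, which holds the sensors inactive until it is drawn to misfolded proteins. Its brightest probe set read 13.71, 13.15 and 12.80 in irradiated cultures of experiments 3, 2 and 1, against 13.77, 13.18 and 12.82 in the controls. The 2 cultures of each experiment lay within 0.06 of each other, and the experiments did not overlap. Experiment 3 minus experiment 1 was 0.93 ± 0.09 (SE), or 1.91-fold, with a limma adjusted p of 0.0076.

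A second Hspa5 probe set read 13.26, 12.56 and 12.07 in irradiated and 13.35, 12.63 and 12.14 in control cultures, 1.20 higher in experiment 3 than in experiment 1 (limma adjusted p = 0.0031). The third gave 0.47 and did not pass (adjusted p = 0.101). For the brightest set experiment 2 minus experiment 1 was 0.36 (adjusted p = 0.274) and experiment 3 minus experiment 2 was 0.57 (adjusted p = 0.178). Irradiated minus control was -0.04 ± 0.07 with an interval of -0.22 to 0.14 (adjusted p = 0.973), so a 1.5-fold change in either direction lies outside the interval.

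Herpud1 (chr8:94386429-94395371) encodes an ER membrane protein that takes part in ER-associated degradation. Its brightest probe set read 10.68, 9.62 and 9.02 in irradiated cultures, against 11.02, 9.66 and 9.13 in the controls of experiments 3, 2 and 1. The experiments did not overlap. Experiment 3 minus experiment 1 was 1.77 ± 0.11 (SE), or 3.42-fold, with a limma adjusted p of 0.0015, and experiment 3 minus experiment 2 was 1.21 ± 0.11, or 2.31-fold, with an adjusted p of 0.0606.

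A second Herpud1 probe set gave 1.79 for experiment 3 minus experiment 1 (limma adjusted p = 0.0109). Irradiated minus control was -0.16 ± 0.09 in the brightest set, with pair values of -0.34, -0.04 and -0.11 and a limma adjusted p of 0.929. The second set gave pair values of -0.70, 0.17 and -0.16.

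The promoters of Hspa5 and Herpud1 are shown because they carry the element classes through which ATF6 and XBP1 are known to act, and both genes passed for experiment 3 minus experiment 1. Bounds and strand are as above. In Hspa5 the capitals mark an ER stress element (CCAAT and CCACG, 9 bases apart) and, further upstream, the core TGACGTG of an unfolded protein response element. In Herpud1 they mark an ER stress element II (ATTGG and CCACG, 1 base apart) and, further upstream, a C/EBP-ATF response element on the opposite strand.
Hspa5, chr2:34771840-34772139, plus strand: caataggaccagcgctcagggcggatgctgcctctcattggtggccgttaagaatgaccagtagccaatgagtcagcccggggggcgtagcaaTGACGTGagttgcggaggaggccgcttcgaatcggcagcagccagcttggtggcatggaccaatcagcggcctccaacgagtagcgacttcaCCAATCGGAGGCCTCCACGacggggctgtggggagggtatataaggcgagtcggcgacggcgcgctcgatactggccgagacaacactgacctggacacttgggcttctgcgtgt
Herpud1, chr8:94386179-94386478, plus strand: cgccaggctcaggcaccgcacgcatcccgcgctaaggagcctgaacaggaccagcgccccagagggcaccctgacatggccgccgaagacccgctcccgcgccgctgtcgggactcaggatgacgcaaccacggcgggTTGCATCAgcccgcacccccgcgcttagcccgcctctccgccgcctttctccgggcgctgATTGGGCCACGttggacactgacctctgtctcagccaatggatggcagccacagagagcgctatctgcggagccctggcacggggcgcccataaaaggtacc

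The ER stress element of Hspa5 lies from -65 to -47 and the core from -157 to -151. The ER stress element II of Herpud1 lies from -52 to -42 and its C/EBP-ATF response element from -112 to -105. None of these matches overlapped another. Searched on both strands, the ER stress element was found in 0.119% of the 32851 promoters, the ER stress element II in 0.0365% and the core in 2.01%. Of the 10 promoters 5 held none of the 4 motifs, those of Atf4, Ddit3, Xbp1, Dnajb9 and Sdf2l1, which says only that these letters are not in this window. Of the 4 genes that passed, Hspa5 and Herpud1 hold an ER stress element or element II, and Ddit3 and Dnajb9 hold no match. Asns, Trib3 and Chac1, with only the C/EBP-ATF response element, did not pass. Nor did Atf4, Xbp1 and Sdf2l1, with no match. Whether the motifs relate to the differences was not tested.

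**Figure D1:**
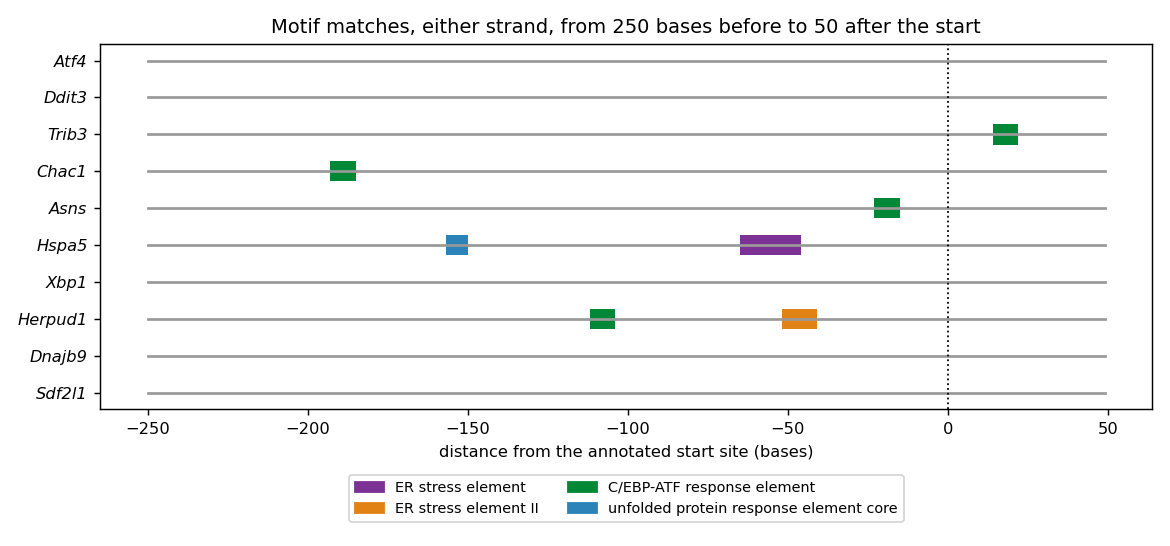
Motif matches in the promoters of the 10 genes, by distance in bases from the RefSeq start site (0), with one line a gene and one colour a motif. Asns, Trib3, Chac1, Hspa5 and Herpud1 hold at least 1 match, and the other 5 genes hold none.

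Dnajb9 (chr12:44205897-44210068) encodes ERdj4, a co-chaperone that recruits BiP to the sensor IRE1. It read 12.35, 12.12 and 11.43 in irradiated cultures of experiments 3, 2 and 1, against 12.56, 12.23 and 11.70 in the controls. The experiments did not overlap, and the irradiated culture was lower in each. Its difference between experiments 3 and 1 was 0.89 ± 0.10 (SE), or 1.85-fold, with a limma adjusted p of 0.0099, and experiment 2 minus experiment 1 was 0.61 (adjusted p = 0.0861). Irradiated minus control was -0.20 ± 0.08 with an interval of -0.39 to -0.01. That was the other member probe set with an unadjusted p under 0.05 (limma adjusted p = 0.929).

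Xbp1 (chr11:5520641-5525993) encodes the transcription factor made from the mRNA that IRE1 splices. The splicing removes a short intron, and the probe sets were not used here to tell spliced from unspliced mRNA. The brightest of its 4 sets read 11.94, 11.97 and 11.99 in irradiated cultures, against 12.07, 12.12 and 12.08 in the controls of experiments 3, 2 and 1. The arms did not overlap, but irradiated minus control was -0.12 ± 0.07 with an interval of -0.31 to 0.06 and did not pass (limma adjusted p = 0.929). Between experiments it was level, with -0.03 ± 0.09 for experiment 3 minus experiment 1 and an interval of -0.25 to 0.19. The other 3 sets gave 0.05, 0.13 and 0.21, and none passed. For irradiated minus control those 3 sets gave -0.10, -0.19 and -0.13, and the arms of the dimmest overlapped. The share of all probe sets whose arms do not overlap was not counted.

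Sdf2l1 (chr16:17130138-17132383) encodes an ER-resident protein that works with BiP and its co-chaperones. It read 9.79, 9.46 and 9.50 in irradiated cultures of experiments 3, 2 and 1, against 9.61, 9.47 and 9.41 in the controls. It was the 1 gene of the 10 with a positive mean for irradiated minus control, 0.09 ± 0.08 (limma adjusted p = 0.944). For experiment 3 minus experiment 1 it gave 0.25 ± 0.10, with an adjusted p of 0.252.

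**Figure D2:**
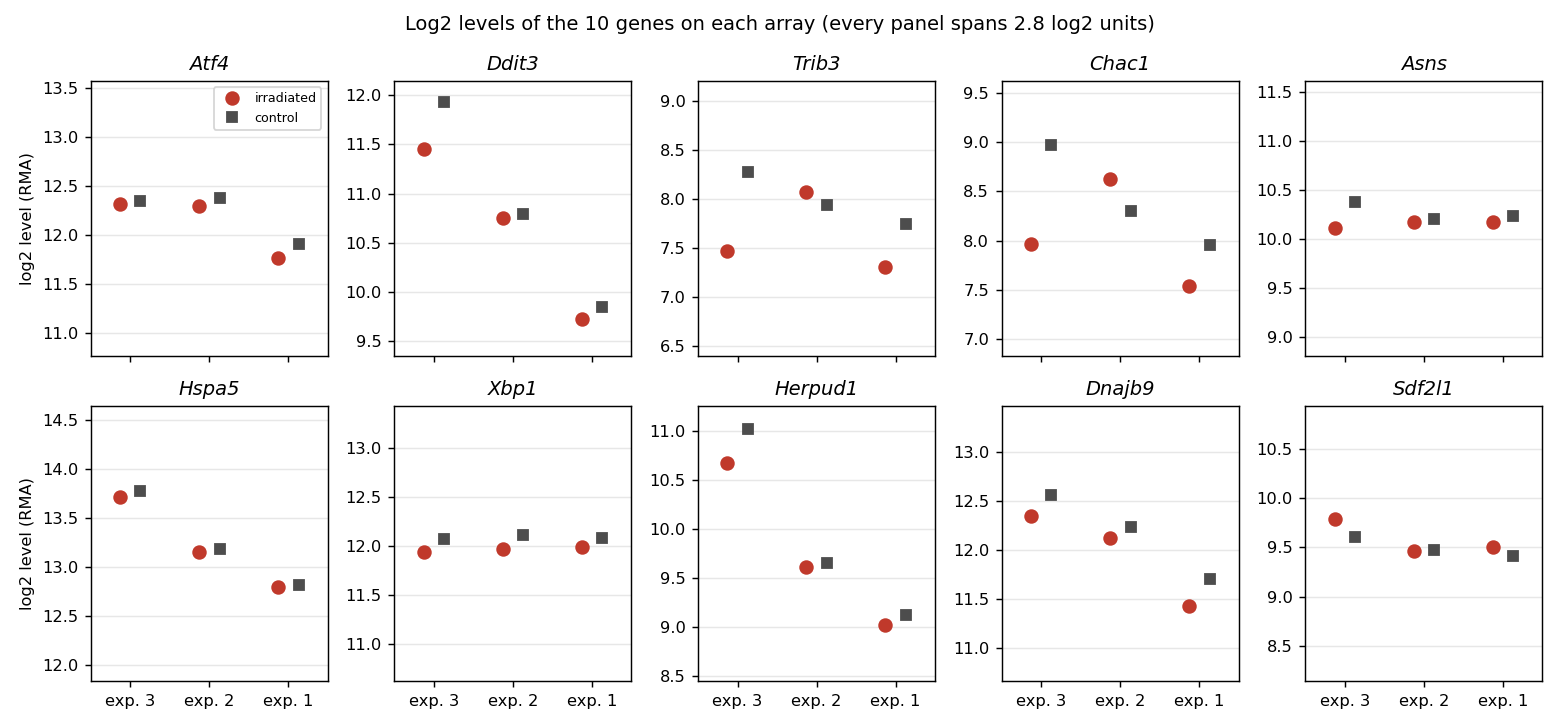
Log2 level of the brightest probe set of each of the 10 genes on all 6 arrays, by experiment, with irradiated and control cultures as separate points and every panel spanning the same number of log2 units. Ddit3 and Herpud1 cover the widest range, and Asns and Xbp1 are nearly flat.

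Read together, the irradiated minus control differences of the members were small and mostly negative, and none passed. The mean difference was negative for 9 of 10 genes and 19 of 21 probe sets, and the median over the 10 genes was -0.14. The 95% interval stayed within 1.5-fold in either direction in 17 of the 21 sets and within 2-fold in 21 of 21. The 4 that reached past 1.5-fold included Chac1 and the brightest set of Trib3, the 2 genes of the 10 for which this held. The irradiated culture was lower in all 3 pairs for 7 of 10 genes, against 11.6% of all genes, and for 12 of 21 probe sets, against 11.2% of all. The gene count uses the brightest sets. Of those 7 genes, Atf4, Ddit3, Asns, Hspa5, Xbp1 and Herpud1 each have another set that was not lower in all 3 pairs. The irradiated culture was higher in all 3 pairs for 0 of the 21 probe sets. Of the fat-cell markers, 5 of 9 were also lower in all 3 pairs, and 8 of 9 had a negative mean difference. Of the macrophage and leukocyte markers, 0 of 10 were lower in all 3 pairs, and 10 of 10 had a positive mean difference. The member probe sets share arrays and overlap in target, so these counts are no set of independent events. With 3 pairs, the smallest two-sided p of an exact sign-flip test is 0.25.

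The pairs differed in size. In experiment 3 the median over the 10 genes was -0.24, in experiment 2 it was -0.04 and in experiment 1 it was -0.12, while the medians over all genes were 0.00, 0.00 and 0.01. The ATF4 branch had -0.48, -0.03 and -0.15, and the ATF6 and XBP1 branch had -0.13, -0.04 and -0.09. The -0.48 is the value of the brightest Ddit3 set, and the other Ddit3 set gave 0.23 in experiment 3. Whether the exposure acted differently in the 3 experiments was not tested, since each experiment holds 1 array an arm. The control of experiment 3 is the array whose spikes stood apart, and the median of the 10 genes was -0.08 without that experiment.

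**Figure D3:**
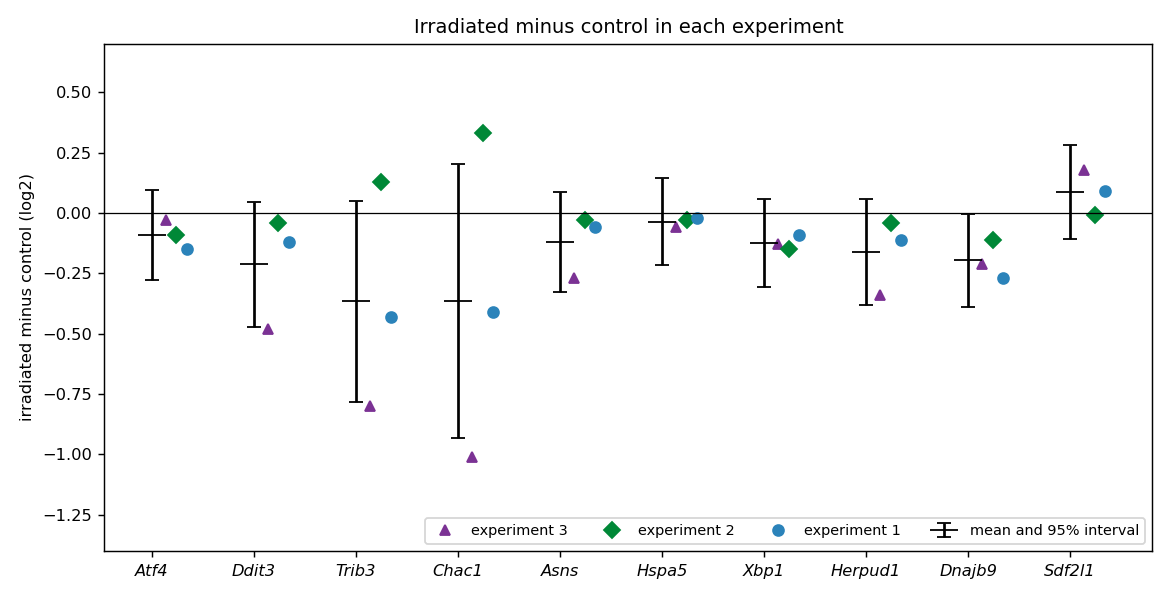
Irradiated minus control log2 difference of the brightest probe set of each gene, with 1 point per experiment and the mean with its 95% interval from limma. The interval of Dnajb9 alone stays below 0, none passed the adjusted threshold, and the points of Trib3 and Chac1 lie widest apart.

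Between experiments the members ranged from no measurable difference to several-fold ones. For experiment 3 minus experiment 1, the median over the 10 genes was 0.61, against -0.02 over all genes, and 9 of 10 were positive. At an unadjusted p under 0.05 there were 13 of the 21 member sets, and 8619 of the 45037. No member was called lower, while 1.07% of all genes were. Among probe sets at or above the median level, which all members but the dim Atf4 set are, 3.26% were called higher. For experiment 2 minus experiment 1 the median was 0.49, and 2 of 21 probe sets passed, against 0.473% of all. Both belong to Ddit3, so 1 of 10 genes passed, against 0.616%. At an unadjusted p under 0.05 there were 10 of the 21, and 4456 of the 45037.

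For experiment 3 minus experiment 2 the median was 0.15, and limma called 0 of 21 probe sets, against 0.0355% of all, and 0 of 10 genes, against 0.044%. At an unadjusted p under 0.05 there were 7 of the 21 in that comparison, and 4454 of the 45037. These 3 comparisons share experiments, so their values are given side by side. Atf4 gave 0.50 over experiment 1 in experiment 3 and also in experiment 2, with both arms level between those experiments. Chac1 gave 0.72 in each as a mean of arms that went opposite ways, since its irradiated culture was lower in experiment 3 than in experiment 2 and its control higher. Hspa5 and Herpud1 gave 0.93 and 1.77 in experiment 3, against 0.36 and 0.57 in experiment 2.

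**Figure D4:**
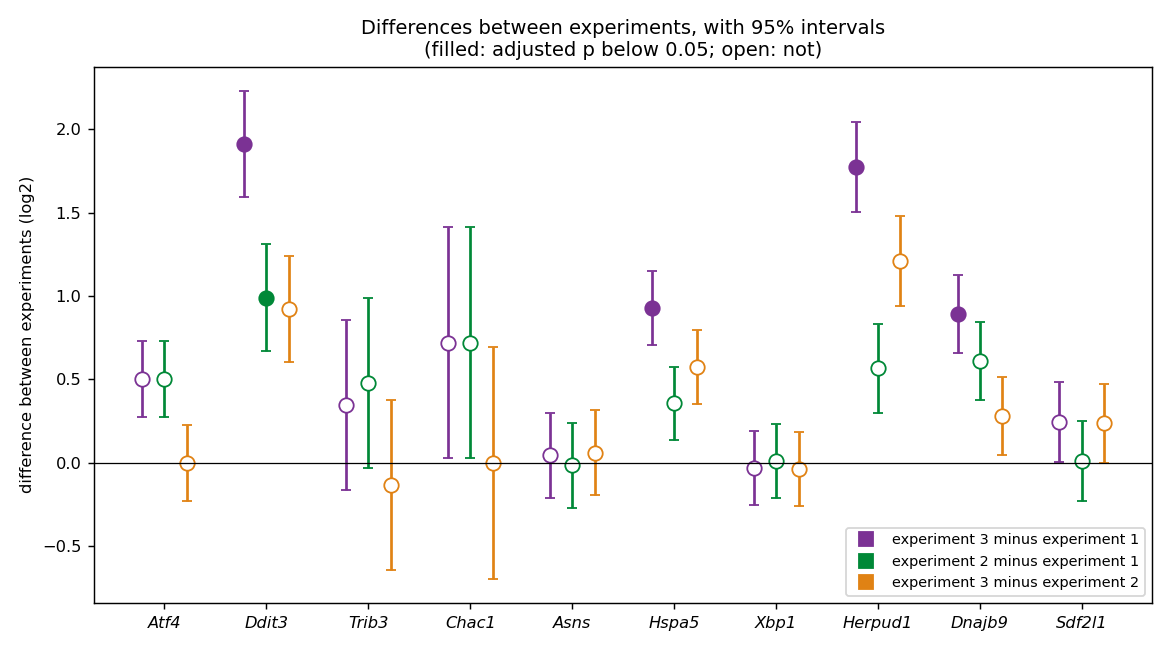
Difference between experiments in log2 level for the brightest probe set of each gene, with its 95% interval from limma and one colour a comparison. Filled points passed the adjusted threshold: Ddit3, Herpud1, Hspa5 and Dnajb9 for experiment 3 minus experiment 1, and Ddit3 for experiment 2 minus experiment 1.

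The wider pathways were read from 9 lists of 126 genes that exclude the members, of which 119 were measured. For irradiated minus control 0 genes of any list passed limma's adjusted threshold. The 3 genes at an unadjusted p under 0.05 included Sesn2, a stress-induced regulator of mTORC1, at -0.23 ± 0.08 (limma adjusted p = 0.929). They also included Fgf21, a hormone that ATF4 induces, at -0.34 ± 0.14 (adjusted p = 0.929). Fgf21 was dim, with a mean of 4.74, and its pair values were -0.75, -0.08 and -0.19 in experiments 3, 2 and 1. Mbtps2, the protease that makes the second cut in ATF6, was the third, at 0.20 ± 0.08 (adjusted p = 0.929). Eif2ak3, which encodes PERK, was at -0.11 ± 0.08 (adjusted p = 0.931).

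The genes with the smallest p in the other lists lay between -0.21 and 0.14. In the amino acid lists Aldh18a1 and Psat1, of proline and serine synthesis, were at -0.21 and -0.16, the carriers Slc7a5 and Slc7a1 at -0.20 and -0.11, and the tRNA synthetase genes Aars and Lars at -0.11 and 0.07. In the ER lists the oxidase gene Ero1a was at -0.13, the folding enzyme gene Fkbp11 at -0.11, Edem3 and Syvn1 of ER-associated degradation at 0.14 and -0.11, and Spcs3 and Srp9 of ER import at 0.11 and -0.09. Of the cell death genes, Pmaip1 was at -0.14 and Bak1 at -0.04. The limma adjusted p of all list genes lay at 0.929 or above.

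The calls for experiment 3 minus experiment 1 lay in 2 of the 9 lists. Of 14 measured stress regulators and secreted factors among ATF4 targets, 6 were called higher, against 2.07% of all genes, and 0 lower. Their median was 0.50, and the lists were chosen with earlier results of these data known. Atf3, a stress-induced transcription factor, read 11.87, 10.22 and 8.46 in irradiated cultures of experiments 3, 2 and 1, against 12.21, 10.18 and 8.39 in the controls. That is a difference of 3.62 ± 0.13 between experiments 3 and 1, or 12.3-fold (limma adjusted p = 0.00029). Atf3 also passed for experiment 2 minus experiment 1 (adjusted p = 0.0064) and for experiment 3 minus experiment 2 (adjusted p = 0.0347).

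Ppp1r15a, which encodes GADD34, the phosphatase subunit that reverses eIF2α phosphorylation, read 10.57, 9.81 and 8.38 in irradiated cultures and 10.81, 9.99 and 8.28 in controls. It was 2.36 ± 0.12 higher in experiment 3 than in experiment 1 (limma adjusted p = 0.00069). The other 4 were Vegfa, the blood vessel growth factor, at 1.26 (adjusted p = 0.0028), Cebpb, a fat-cell and stress transcription factor, at 0.97 (adjusted p = 0.0109), Sesn2 at 0.87 (adjusted p = 0.0131) and Ddit4, an inhibitor of mTORC1, at 0.53 (adjusted p = 0.0433).

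Of 6 measured ER stress cell death genes 2 were called higher, against 2.07% of all genes. They were Pmaip1, which encodes the death promoter NOXA, at 1.75 ± 0.10 (limma adjusted p = 0.0013), and Bcl2l11, which encodes BIM, at 0.92 ± 0.15 (adjusted p = 0.0348). Vegfa, Cebpb, Ddit4 and Bcl2l11 also answer to stimuli outside this pathway, and so do Atf3, Ppp1r15a, Sesn2 and Pmaip1.

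In the lists of folding and amino acid genes, which leave out Hspa5, Dnajb9 and the other members, no gene passed for experiment 3 minus experiment 1. Of 20 ER chaperones and folding enzymes, limma called 0 for experiment 3 minus experiment 1, with 4 at an unadjusted p under 0.05 and a median of 0.08. Calr, the lectin chaperone calreticulin, was at 0.46 ± 0.09 (limma adjusted p = 0.0649), and Manf, a secreted ER stress protein, was at 0.41 ± 0.11 (adjusted p = 0.107). Of 9 genes of amino acid uptake, 11 of amino acid synthesis and one-carbon metabolism and 13 of tRNA charging, 0 were called, with 5, 5 and 0 at an unadjusted p under 0.05. Those counts are to be read against the 8619 of 45037 probe sets at that p in the same comparison. Slc7a11, the cystine carrier, was at 0.86 ± 0.22 (adjusted p = 0.113) and Slc7a5, a carrier of large neutral amino acids, at 0.60 ± 0.15 (adjusted p = 0.103). Psph, of serine synthesis, was at 0.48 ± 0.12 (adjusted p = 0.102). Cth, of cysteine synthesis, was at 0.47, and the tRNA synthetase genes Sars and Nars were at 0.20 and 0.17. None of 13 sensor and control genes, 15 genes of ER-associated degradation or 18 of ER import and transport was called, with 3, 3 and 0 at an unadjusted p under 0.05. Their widest differences were -0.41 for Eif2ak4, the amino acid sensor GCN2, -0.30 for Mbtps2, 0.47 for Ube2j1, 0.30 for Selenos, -0.23 for Spcs3 and -0.22 for Ssr1.

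**Figure D5:**
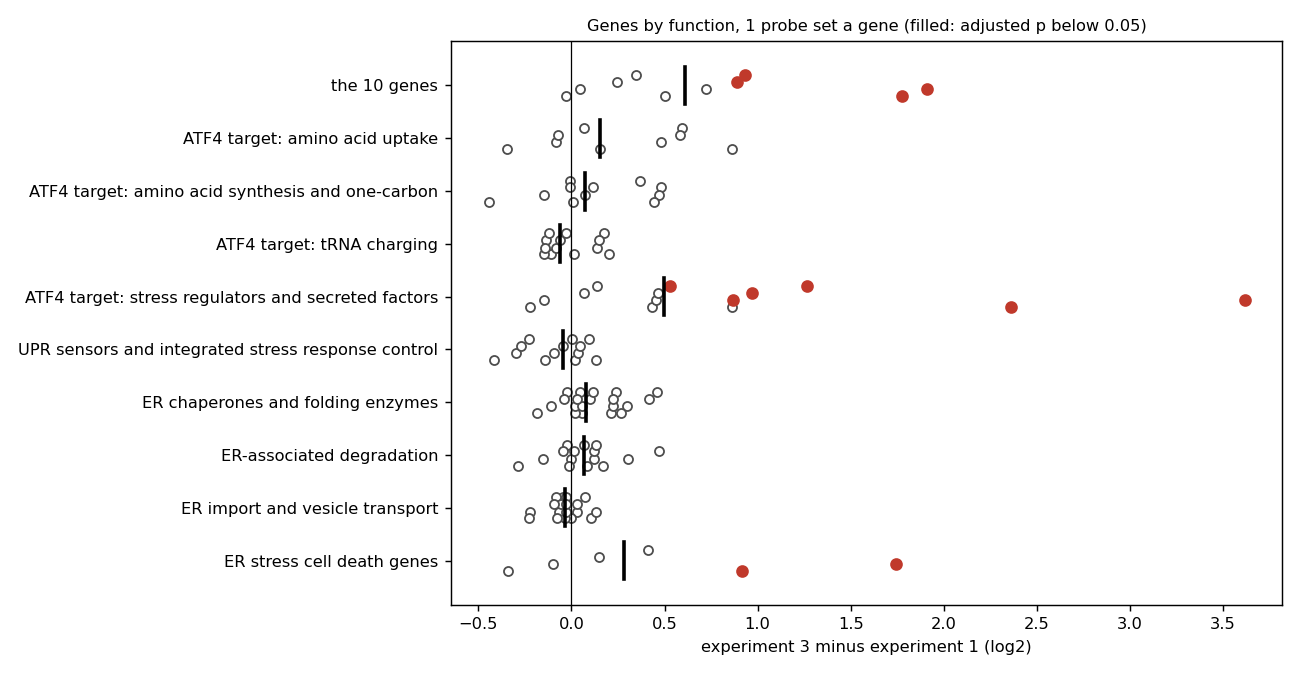
Difference between experiments 3 and 1 in log2 level for the measured genes of each of the 9 lists and for the 10 members, 1 point a gene, with the median of each as a line and filled points for genes past limma's adjusted threshold. Calls lie among the members, the stress regulators (6 of 14) and the cell death genes (2 of 6), against 2.07% of all genes called higher.

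Within the pairs, most genes of the 4 ATF4 target lists were lower in the irradiated culture in experiments 3 and 1, but not in experiment 2. Of their 47 measured genes, 38 were lower in the irradiated culture in experiment 3, 15 in experiment 2 and 29 in experiment 1. The median differences were -0.20, 0.03 and -0.03. Over all genes the shares lower were 48.4%, 48.7% and 46.9%. The highest list mean of the 6 arrays was that of the experiment 3 control in each of the 4 ATF4 target lists. No single gene of these lists passed, and the part of that array in the counts was not tested.

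The likeness of other genes to Ddit3 and Hspa5 was measured as the root mean square difference between log2 profiles over the 6 arrays, each centred on its own mean, among about 20234 probe sets at or above the median level. Nearest to Ddit3 was Dnajb1, a cytosolic co-chaperone of the heat shock response, at 0.10. It read 12.80, 12.04 and 10.94 in irradiated cultures of experiments 3, 2 and 1, against 13.23, 12.04 and 10.88 in the controls. Next came Epha2 at 0.11, Lonrf3 at 0.12, Chka at 0.13 and Simc1 at 0.14. Nearest to Hspa5 were Dynll1 at 0.04 and Dnaja1, another cytosolic co-chaperone, at 0.04, followed by Jmjd6 at 0.05 and Jag1 and Snhg5 at 0.06 each. Among the members themselves the nearest pair was Asns and Xbp1, at 0.07, followed by Hspa5 and Dnajb9, at 0.16. The profiles were not scaled, so Asns and Xbp1, both nearly flat, lie close whatever the order of their arrays. These measures are descriptions over 6 arrays that share their 3 experiments, and say nothing of a common regulator.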

How the data were processed

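RNA abundance was measured with Affymetrix arrays in 3 irradiated and 3 control cultures, from 200 ng of total RNA labelled by oligo-dT priming per the labels' protocols. The deposited table gives a log2 level for each probe set on each array. RMA, affy and limma are named, without roles or versions, in the submitters' processing notes. No log base is stated, and 2 was assumed because RMA works on that scale. Per the series design, each experiment paired 1 irradiated with 1 adjacent control culture. Across probe sets, the deviations of paired arrays from their group means had r = 0.505, 0.142 and 0.629 in experiments 3, 2 and 1, and irradiated culture 2 with control 3 at 0.153. The number of arrays limits the precision.

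limma 3.58.1 in R 4.3.3 fitted arm and experiment (lmFit, eBayes) on all 45037 non-control probe sets with no filter on level, with two-sided p-values adjusted over all of them by Benjamini-Hochberg at a threshold of 0.05. In total 4 contrasts were tested. Intervals are 95% intervals of that fit, and SEs are its moderated ones, with 2 residual and 4.15 prior degrees of freedom. Genes were named from the platform annotation: 34945 probe sets have 1 symbol, 932 several and 9160 none. Promoters are RefSeq's (GRCm38.p6) and matched for 10 of 10 genes. The named genes are all members, the 2 genes of each pathway list with the smallest p for irradiated minus control and the 2 with the largest difference between experiments 3 and 1, and the 5 genes most like Ddit3 and Hspa5. The 9 pathway lists cover ATF4 targets (amino acid uptake, amino acid synthesis, tRNA charging, stress regulators), sensors, chaperones, ER-associated degradation, ER import and cell death. Of the called stress regulators, Vegfa, Cebpb, Sesn2 and Ddit4 fall outside that rule for this contrast and were named after their values were seen. The 7 marker lists cover stromal, fat, macrophage and leukocyte, plasma, endothelial, osteoblast and chondrocyte, and epithelial cells. Members and lists were chosen with earlier results of these data known. Alternatives were other blocks, normalizations, priors, weights, a level filter, gene means and leaving out each experiment.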

Additional observations from a re-analysis of the deposited data

How the results depend on the processing

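For irradiated minus control, 0 member probe sets passed limma's threshold under each of the alternatives run: with no replicate block, with a random replicate block (correlation 0.286), quantile normalization, median centring, a level filter, an intensity trend, a robust prior, array weights, gene means and without any 1 experiment. The fit with the experiment as a block is the one reported, since the pairing comes from the series design, and without it the SE of member probe sets ranged from 0.0731 to 0.579, against 0.0741 to 0.233 with it. The median of the 10 genes ranged from -0.195 to -0.0775 when 1 experiment was left out. Single differences near 0 changed sign when 1 experiment was left out: the second Atf4 set ranged from -0.19 to 0.02, the third Hspa5 set from -0.055 to 0.115, the dimmest Xbp1 set from -0.25 to 0.055, the second Herpud1 set from -0.43 to 0.005, Slc7a1 from -0.265 to 0.015 and Aars from -0.185 to 0.01.

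For experiment 3 minus experiment 1, limma called 1374 probe sets in all, 2513 with the level filter and 3534 with the trend, and 750 genes with gene means. For experiment 2 minus experiment 1 these counts were 234, 374, 670 and 151, and member probe sets called were 2, against 4 with the filter, 7 with the trend and 1 with a robust prior. Member genes called were 1, against 2, 5 and 0, and 2 with gene means. Under the robust prior the adjusted p of the brightest Ddit3 set was 0.0535, and array weights gave Ddit4 0.0551 for experiment 3 minus experiment 1. For experiment 3 minus experiment 2 the counts in all were 16, then 64 with the filter, 275 with the trend, 33 with gene means and 52 with no arm term. Member probe sets called were 0, against 2 with the filter, 5 with the trend, 1 with median centring and 1 with no arm term, and member genes 0, against 1, 3, 1 and 1. The median of the 10 genes in that comparison was 0.15, against 0.33 on control arrays alone. Apart from the changes in number of features that the filter and gene means make, the cause was not tested.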

Other observations

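Outside the pathway lists, Sox9, a transcription factor of cartilage and progenitor cells in the osteoblast and chondrocyte marker list, differed between experiments. It read 7.64, 7.15 and 5.31 in irradiated cultures of experiments 3, 2 and 1, against 8.43, 7.28 and 5.35 in the controls, which is 2.71 ± 0.19 (SE) for experiment 3 minus experiment 1, with a limma adjusted p of 0.0022. It was named after its values were seen. The list had 1 of 6 measured genes called higher for experiment 3 minus experiment 1, against 2.07% of all genes. For experiment 2 minus experiment 1 it had 1 of 6, against 0.616% of all genes. Of 6 endothelial markers 1 was called higher for experiment 3 minus experiment 1, Pecam1, which was dim on all arrays, at 2.70 to 3.18 in irradiated and 2.58 to 3.21 in control cultures. The means of the 6 endothelial markers were 3.63, 3.59 and 3.60 in irradiated and 3.63, 3.36 and 3.49 in control cultures of experiments 3, 2 and 1, below the median probe set of 4.84 on all arrays. Of 6 plasma cell and 6 epithelial markers, limma called 0 in any comparison. At an unadjusted p under 0.05 stood 1 plasma cell marker for irradiated minus control, Mzb1 at -0.26. There was also 1 plasma cell marker for experiment 3 minus experiment 2, and 0 epithelial markers.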
